A study of Sus scrofa with 8 samples.

Results

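Collagen genes were taken as the protein-coding genes whose symbol is COL, a number, A and a number in the RefSeq gene table of the pig genome build Sscrofa11.1. The table holds 43 such genes among 20663 protein-coding genes, and 42 of them lie on chromosomes 1 to 18 and X. Open chromatin was measured by ATAC-seq, in which a transposase cuts accessible DNA, and peaks of all 8 libraries were merged into 178498 regions wherever they overlapped by 1 bp. A region was linked to the gene with the nearest end, at either side, within 50 kb, which tied 574 of 114950 linked regions to the 42 collagen genes. COL6A2 lies on an unplaced sequence and had no linked region, and COL6A1 was not analysed here.

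The cells were labelled as porcine muscle satellite cells, the stem cells of skeletal muscle, and the libraries fall into 4 groups of 2. These are CBP at 60 h and WT at 60 h, labelled as differentiation, and CBP at 0 h and WT at 0 h, labelled as proliferation. The protocol given for every sample, WT included, names SGC-CBP30, a small molecule that occupies the bromodomains of CBP and EP300, both histone acetyltransferases, for 48 h of proliferation or 60 h of differentiation. No label says that the CBP groups were the treated ones, the line is named C3H although the organism is pig, and no label tells whether the 2 libraries of a group are separate animals or cultures.

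Collagens are triple-helical proteins of the extracellular matrix. Fibrillar types I, III and V form the fibrils of muscle connective tissue, network-forming type IV is the scaffold of the basement membrane around each fibre, and the other classes decorate fibrils, anchor them or span the cell membrane. Satellite cells lie beneath that basement membrane, and in mice collagens V and VI are known components of their niche. Fibroblasts are the main collagen producers of muscle, and open chromatin near a gene is not a measure of its expression.

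Collagen genes had a median of 12 linked regions (1 to 33), against 5 over all linked protein-coding genes. Of the 574 regions, 348 lay inside a gene, 168 lay between genes and 58 lay within 1 kb of a gene end. All 8 libraries called 162 regions (28.2%, against 31.8% of all linked regions), and a single library called 128 (22.3%, against 21.4%). Neighbouring regions are not independent, since 75 started 500 bp or less after another. The ends of COL4A1 and COL4A2 overlap on chromosome 11, so regions inside one of these genes can be linked to the other.

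Depth moved with time in the whole series. The 60 h lists held 82696 to 88871 peaks and the 0 h lists 121757 to 135528, and depth relative to the shallowest library, recovered from the authors' values, was 1 to 1.21 at 60 h and 1.43 to 2.08 at 0 h. The deposited lists give no read totals, so absolute depth is unknown. The main counts below are therefore given for the lists as deposited and again for the strongest 82696 peaks of every library, called equal peak numbers, and the test of single genes uses equal numbers. With equal numbers, the weakest peak kept had a −log10 q of 1.31 to 3.05 at 60 h and 7.04 to 8.97 at 0 h, so a site that is weak at both times can count as opened. An end of the gene was open in all 8 libraries at 7 of 8 satellite cell or myoblast marker genes, 5 of 8 fibroblast, 2 of 6 endothelial, 3 of 5 immune, 1 of 4 neural and 3 of 5 smooth muscle marker genes, against 67.2% of all protein-coding genes. These are bulk cells, in which fewer cells of a type and less open DNA per cell cannot be told apart, and the part of either in the results was not tested.

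At 28 of 42 collagen genes (66.7%, against 67.2% of all protein-coding genes) an end lay in a region called in all 8 libraries, and COL1A2, COL21A1 and COL23A1 had both ends so called. The strand is not given in the table used here, so an end is named by its coordinate. The high end of COL5A2, which encodes a chain of type V collagen, at chromosome 15 position 93981131, had −log10 q values of 54.8 and 54.0 in CBP 60 h, 62.8 and 57.3 in WT 60 h, 80.3 and 66.9 in CBP 0 h and 76.7 and 81.6 in WT 0 h. The low end of COL1A2, which encodes the second chain of type I collagen, at chromosome 9 position 74174484, had 46.1 and 34.1 in CBP 60 h, 36.7 and 32.3 in WT 60 h, 40.3 and 48.7 in CBP 0 h and 40.2 and 46.5 in WT 0 h. These are the authors' values, which also grow with depth, and both ends were open in all 4 groups.

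A further 10 genes, with no end called in all 8 libraries, had an end called in 1 to 7 of them. COL3A1, which encodes type III collagen, had its low end open in 7 libraries, all except WT 0 h replicate 2, with −log10 q of 5.84 to 10.6. COL24A1, a fibrillar collagen, had its low end open in all but WT 60 h replicate 2. COL4A6, a basement membrane chain, COL9A1, which decorates cartilage fibrils, COL10A1, of hypertrophic cartilage, and COL28A1 had no end called in any library.

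**Figure D1:**
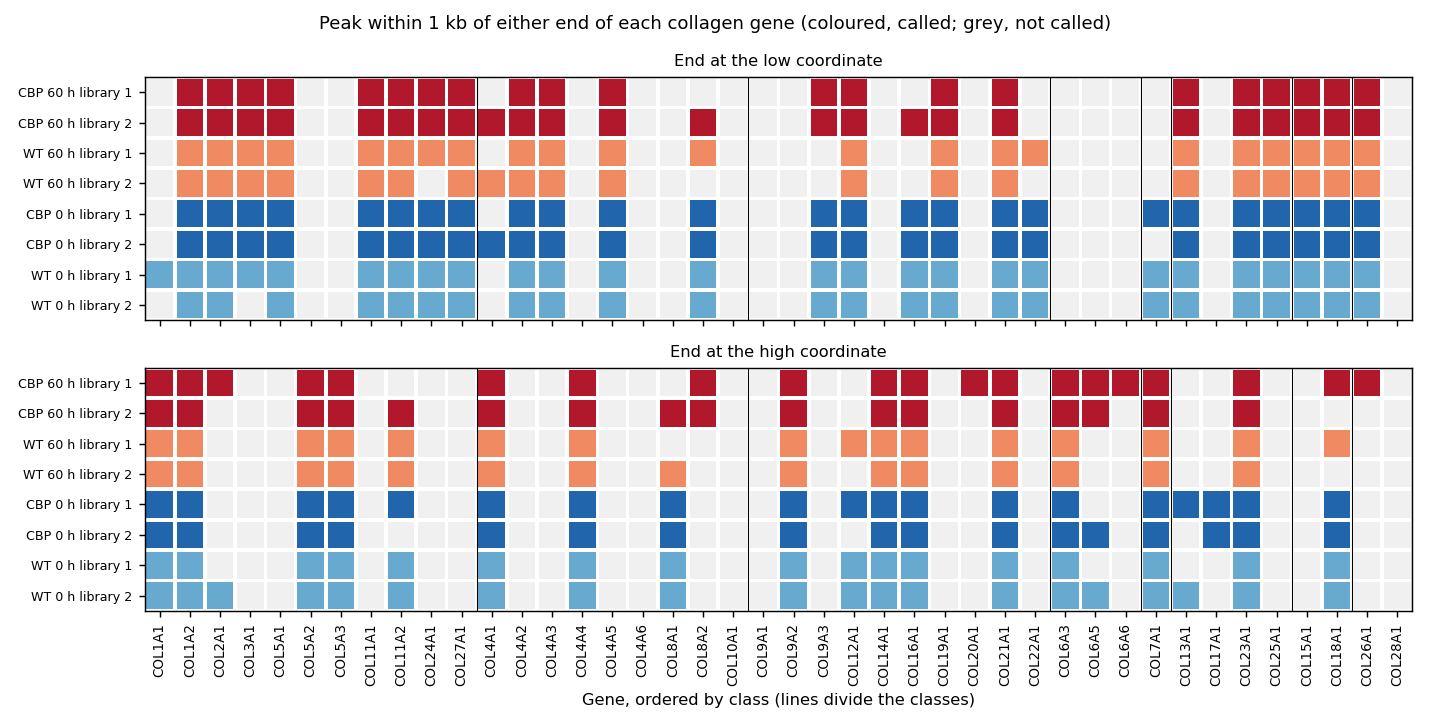
Calls as deposited within 1 kb of the low-coordinate end (top) and high-coordinate end (bottom) of each of the 42 collagen genes, ordered by class, in the 8 libraries; coloured cells are calls and grey cells are none. At 28 genes a whole column is coloured at an end, and at 4 genes neither end was called in any library.

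Over all collagen regions, the share called was 45.6% to 48.4% in the 60 h lists and 64.1% to 73.5% in the 0 h lists as deposited. The same shares over all linked regions were 46.2% to 48.4% at 60 h and 65.6% to 74.7% at 0 h. With equal peak numbers the collagen share was 42.5% to 46.2% at 60 h and 43.6% to 45.3% at 0 h, so the times overlapped once list length was equal. Over all linked regions it was then 45.3% to 46.6% at 60 h and 47.0% to 48.1% at 0 h, which did not overlap.

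The fibrillar class holds 11 genes and 170 regions. As deposited, 86 and 79 of these were called in CBP 60 h, 92 and 81 in WT 60 h, 125 and 111 in CBP 0 h and 116 and 123 in WT 0 h. With equal peak numbers the counts were 80 and 75 in CBP 60 h, 90 and 81 in WT 60 h, 80 and 80 in CBP 0 h and 78 and 79 in WT 0 h. WT 60 h was thus the highest of the 4 groups by equal numbers, and the CBP 60 h libraries lay below both WT 60 h libraries. Those WT 60 h counts were 52.9% and 47.6% of the class, against 46.6% and 46.2% of all linked regions. For the 109 regions of types I, III and V the equal-number counts were 46 and 44 in CBP 60 h, 61 and 53 in WT 60 h, 47 and 46 in CBP 0 h and 47 and 48 in WT 0 h. Both WT 60 h libraries stood above the 6 others there. COL1A1 alone gave 4 and 5 of these calls in CBP 60 h and 9 and 8 in WT 60 h. At 0 h it gave 4 and 3 in CBP and 3 and 3 in WT. Without COL1A1, WT 60 h replicate 2 would not stand above every 0 h library in either set, so the pattern leaned on this gene. Marker lists moved as well by equal numbers. Of 93 fibroblast marker regions 39 and 37 were called in CBP 60 h, 42 and 42 in WT 60 h, 33 and 31 in CBP 0 h and 38 and 38 in WT 0 h, so WT 60 h was again the highest group. These WT 60 h shares, 45.2% and 45.2%, lay below those of all linked regions. Of 65 endothelial marker regions 20 and 23 were called in CBP 60 h, 24 and 22 in WT 60 h, 22 and 24 in CBP 0 h and 15 and 20 in WT 0 h. Of 113 satellite cell and myoblast marker regions 43 and 44 were called in CBP 60 h, 46 and 49 in WT 60 h, 43 and 44 in CBP 0 h and 49 and 54 in WT 0 h. Among 35 smooth muscle marker regions, 17 and 17 were called in CBP 60 h and 19 and 20 in WT 60 h. Their 0 h counts were 15 and 15 in CBP and 19 and 14 in WT. Among 40 immune marker regions, CBP 60 h called 11 and 15 and WT 60 h 15 and 15. Their 0 h counts were 14 and 14 in CBP and 15 and 14 in WT. Among 20 neural marker regions, CBP 60 h called 11 and 8 and WT 60 h 9 and 8. Their 0 h counts were 9 and 7 in CBP and 8 and 8 in WT. The part of these cell types in the collagen counts was not tested.

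The network-forming class, with types IV, VIII and X, holds 9 genes and 103 regions. As deposited, 50 and 48 were called in CBP 60 h, 51 and 51 in WT 60 h, 79 and 69 in CBP 0 h and 68 and 77 in WT 0 h. With equal peak numbers these were 49 and 45 in CBP 60 h, 47 and 51 in WT 60 h, 50 and 46 in CBP 0 h and 44 and 46 in WT 0 h. The CBP groups overlapped each other, and WT 60 h lay above WT 0 h by a single region.

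FACIT collagens, which sit on the surface of fibrils, had 10 genes and 120 regions. The lists as deposited called 55 and 54 in CBP 60 h, 52 and 53 in WT 60 h, 88 and 76 in CBP 0 h and 77 and 87 in WT 0 h. Equal peak numbers gave 51 and 48 in CBP 60 h, 51 and 53 in WT 60 h, 56 and 54 in CBP 0 h and 53 and 56 in WT 0 h. CBP 60 h lay below CBP 0 h in both forms, and WT 60 h and WT 0 h met at 53 by equal numbers.

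Beaded filament collagens, the type VI chains, had 3 linked genes and 37 regions. As deposited, 21 and 23 were called in CBP 60 h, 19 and 19 in WT 60 h, 22 and 23 in CBP 0 h and 22 and 24 in WT 0 h. With equal peak numbers 20 and 18 were called in CBP 60 h, 18 and 19 in WT 60 h, 12 and 13 in CBP 0 h and 16 and 14 in WT 0 h. By equal numbers all 60 h libraries stood above all 0 h libraries, which the lists as deposited did not show.

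Transmembrane collagens had 4 genes and 60 regions. As deposited, 23 and 23 were called in CBP 60 h, 18 and 18 in WT 60 h, 43 and 32 in CBP 0 h and 30 and 31 in WT 0 h, so CBP lay above WT at both times. Lists of equal length gave counts of 22 and 21 in CBP 60 h, 16 and 18 in WT 60 h, 23 and 18 in CBP 0 h and 19 and 18 in WT 0 h. CBP stayed above WT at 60 h, and the groups overlapped at 0 h.

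Multiplexins, basement membrane collagens with interrupted helices, had 2 genes, COL15A1 and COL18A1, and 53 regions. As deposited, 23 and 23 were called in CBP 60 h, 29 and 23 in WT 60 h, 43 and 35 in CBP 0 h and 38 and 40 in WT 0 h. At equal peak numbers 20 and 22 were called in CBP 60 h, 26 and 23 in WT 60 h, 22 and 25 in CBP 0 h and 26 and 27 in WT 0 h. The CBP counts lay below the WT counts at both times by equal numbers, with single-region gaps.

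COL7A1, the anchoring fibril collagen of skin, had 4 regions, of which 2 and 2 were called in CBP 60 h, 2 and 2 in WT 60 h, 3 and 2 in CBP 0 h and 3 and 4 in WT 0 h as deposited, and only WT 0 h changed with equal numbers, to 3 and 3. COL26A1 and COL28A1, outside these classes, had 27 regions, of which 14 and 13 were called in CBP 60 h, 15 and 15 in WT 60 h, 19 and 20 in CBP 0 h and 23 and 21 in WT 0 h. By equal peak numbers those 27 gave 11 and 13 in CBP 60 h, 15 and 15 in WT 60 h, 14 and 12 in CBP 0 h and 12 and 12 in WT 0 h.

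**Figure D2:**
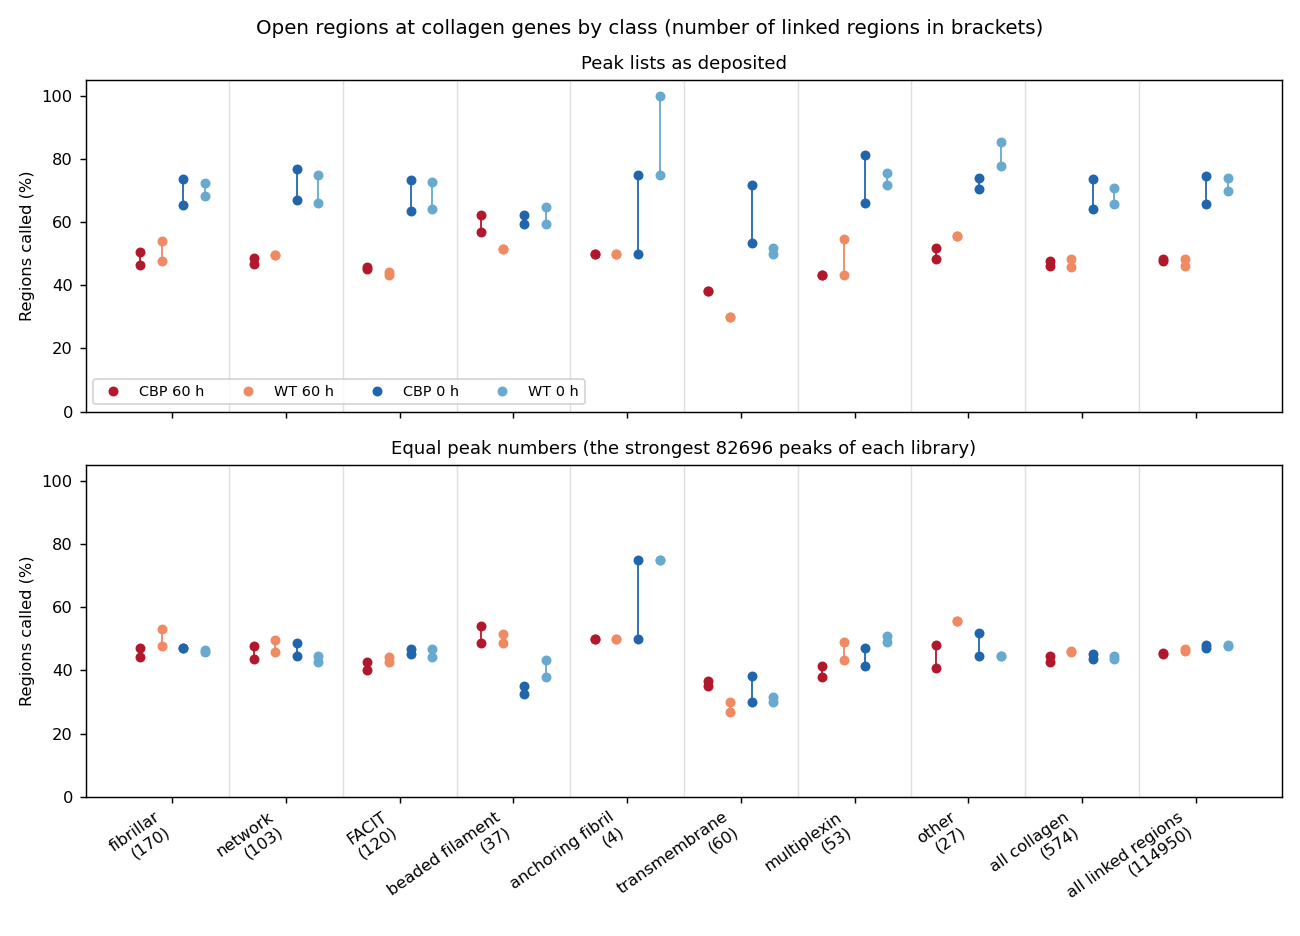
Percent of each collagen class's linked regions called in each library, with peaks as deposited and with equal peak numbers. Points are libraries, grouped as CBP 60 h, WT 60 h, CBP 0 h and WT 0 h; the 0 h libraries lie above the 60 h libraries in most classes as deposited, and the groups draw together with equal numbers.

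The WT libraries at 60 h and 0 h address differentiation. A region was counted as opened if both WT 60 h libraries and neither WT 0 h library called it, and as closed in the reverse case. As deposited, 6 collagen regions opened (1.05%, against 0.575% of all linked regions) and 74 closed (12.9%, against 14.3%). In lists of equal length 29 opened (5.05%, against 2.62%) and 21 closed (3.66%, against 3.89%). Closing thus exceeded opening as deposited, and opening exceeded closing once list length was equal.

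The 6 opened regions belong to 5 genes. COL1A1, which encodes the main chain of type I collagen, had 2 of them, and COL15A1, COL3A1, COL6A3 and COL19A1 had 1 each. By gene, COL1A1 and COL3A1 had more regions opened than closed (2 of 42, against 1.2% of all linked genes), and 33 of the 42 collagen genes had more closed than opened (49.4% of all linked genes did). Fibrillar genes closed 17 regions (10%) and opened 3 (1.76%), and FACIT genes closed 18 (15%) and opened 1 (0.833%). Network genes closed 13 (12.6%) and opened none. Over all linked regions 14.3% closed and 0.575% opened. By equal peak numbers fibrillar genes opened 12 (7.06%) and closed 6 (3.53%), and network genes opened 4 (3.88%) and closed 2 (1.94%). FACIT genes opened 5 (4.17%) and closed 7 (5.83%), and beaded filament genes opened 4 (10.8%) and closed 1 (2.70%). Over all linked regions 2.62% opened and 3.89% closed.

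Closed regions were spread over many genes. COL21A1, a FACIT collagen, closed 6 of 28 and COL15A1 closed 6 of 33 while opening 1. COL1A2 and COL24A1 closed 4 each, COL6A3 closed 4 and opened 1, and COL16A1, COL18A1, COL26A1, COL4A2 and COL5A3 closed 3 each. COL13A1, COL4A1 and COL5A1 closed 2 each, and COL5A2 closed 1. By equal peak numbers COL24A1 still closed 3 and opened 0, while COL15A1, COL6A3, COL16A1, COL26A1, COL4A1 and COL5A1 opened more than they closed. A strong closed region lay inside COL24A1, at chromosome 4 positions 130205292 to 130206527, with −log10 q of 6.07 in CBP 60 h replicate 1 alone, no peak in WT 60 h, 26.7 and 9.67 in CBP 0 h and 17.9 and 15.1 in WT 0 h.

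To test single genes, the percent of a gene's linked regions called with equal peak numbers was fitted in limma across 13029 genes with 3 or more linked regions, 40 of them collagens, with Benjamini-Hochberg adjustment over all genes. COL9A3, with 1 region, and COL6A5, with 2, were not fitted. Each SE below is set by the number of linked regions, through a trend over all genes. It does not measure the spread between that gene's own libraries. In WT, 2 collagens were higher at 60 h than at 0 h (0.775% of all genes were) and none was lower (1.37% were). The median collagen difference was 0 percentage points, as over all genes. Of the 40 collagens, 5 were higher and 3 lower at an unadjusted p under 0.05, against 1689 of 13029 genes in either direction.

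COL1A1 spans chromosome 12 positions 26379087 to 26397180 and has 13 linked regions. At equal peak numbers 69.2% and 61.5% were called in WT 60 h, against 23.1% and 23.1% in WT 0 h, so the groups were far apart. The limma difference was 42.3 ± 6.85 percentage points (SE, n = 2 each), adjusted p = 3.02e-06. As deposited, 9 and 8 regions were called in WT 60 h, against 6 and 7 in WT 0 h, and the difference did not pass (15.4 points, adjusted p = 0.141). Of the 5 regions that opened with equal numbers, 3 had a WT 0 h peak in the lists as deposited, with −log10 q of 2.89 to 7.80. In the same comparison and by equal numbers, 7 of 93 fibroblast marker regions opened and 3 closed. Of 65 endothelial ones 5 opened and none closed, and of 113 satellite cell and myoblast ones 2 opened and 6 closed. Of 35 smooth muscle and 40 immune ones 1 each opened and none closed, and of 20 neural ones 1 opened and 1 closed. Over all linked regions 2.62% opened and 3.89% closed. The part of these marker lists in the COL1A1 difference was not tested.

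COL8A1, a short-chain collagen of vessel walls and the cornea, was the other. By equal peak numbers 41.2% and 64.7% of its 17 regions were called in WT 60 h, against 35.3% and 29.4% in WT 0 h. Its limma difference was 20.6 ± 5.99 points (SE, n = 2 each), adjusted p = 0.0351. WT 60 h replicate 2 carried most of this, since the difference was 8.82 points without it (adjusted p = 0.719), and as deposited the sign turned, to −11.8 points.

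The same comparison between the CBP libraries gave 15 opened collagen regions (2.61%, against 1.36% of all linked regions) and 93 closed (16.2%, against 14.5%) as deposited. In lists of equal length 32 opened (5.57%, against 3.64%) and 29 closed (5.05%, against 5.57%). No collagen gene had more regions opened than closed as deposited (2.52% of all linked genes did), and 28 of 42 had more closed (47.8% of all linked genes did).

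COL15A1 closed 8 regions and opened 1, COL21A1, COL24A1 and COL4A2 closed 6 each, and COL26A1 closed 5. COL4A1 and COL5A1 each closed 5 and opened 1. COL13A1, COL16A1 and COL5A3 closed 4 each, and COL14A1 and COL22A1, a FACIT collagen of the muscle and tendon junction, closed 3 each. COL1A1, COL1A2 and COL3A1 each closed 2 and opened 1, COL6A3 closed 4 and opened 2, and COL5A2 neither opened nor closed any. At equal peak numbers COL6A3 opened 4 and closed 2, and COL4A1 and COL13A1 opened 2 each and closed none. A strong closed region lay 15157 bp beyond the low end of COL21A1, at chromosome 7 positions 29397657 to 29399694, with no peak in CBP 60 h, −log10 q of 7.32 and 6.28 in WT 60 h, 28.1 and 22.3 in CBP 0 h and 33.8 and 32.4 in WT 0 h.

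In the CBP libraries no fitted collagen was higher at 60 h than at 0 h (1.96% of all genes were) and 2 were lower (3.81% were). The median collagen difference was −2.28 points, against 0 over all genes. Of the 40 collagens, 2 were higher and 3 lower at an unadjusted p under 0.05, against 2222 of 13029 genes in either direction. COL9A1 fell, with 14.3% and 42.9% of 7 regions called in CBP 60 h, against 57.1% and 57.1% in CBP 0 h, a limma difference of −28.6 ± 9.55 points (SE, n = 2 each), adjusted p = 0.0480. Its difference over time in WT was the same, −28.6 ± 9.55 points, and missed the threshold there (limma adjusted p = 0.0787). The fall of COL9A1 was thus not particular to the CBP libraries. COL5A3, which encodes a minor type V chain, fell too, with 45.5% and 27.3% of 11 regions called in CBP 60 h, against 63.6% and 54.5% in CBP 0 h, a limma difference of −22.7 ± 7.46 points (SE, n = 2 each), adjusted p = 0.0444. Without CBP 60 h replicate 1 COL9A1 was at −14.3 points (limma adjusted p = 0.649), and without replicate 2 COL5A3 was at −13.6 points (adjusted p = 0.613). Both also failed with a replicate block, where the limma adjusted p was 0.0580 for COL9A1 and 0.0536 for COL5A3. With no variance trend the adjusted p was 0.168 for COL9A1 and 0.224 for COL5A3.

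Across all 8 libraries, regions called in every 60 h library and in no 0 h library numbered 3 (0.523%, against 0.109% of all linked regions). They lay inside COL19A1 at chromosome 1 positions 50379627 to 50380240, 18265 bp beyond the high end of COL1A1 at chromosome 12 positions 26415445 to 26415854, and 6734 bp beyond the low end of COL6A3 at chromosome 15 positions 137003937 to 137004815. The region near COL1A1 had −log10 q of 7.73 and 5.82 in CBP 60 h and 11.4 and 8.24 in WT 60 h. The region near COL6A3 had 8.01 and 7.13 in CBP 60 h and 7.64 and 5.93 in WT 60 h. The COL19A1 region was weaker, with 3.99 and 7.78 in CBP 60 h and 2.97 and 3.29 in WT 60 h. By this definition all 3 were called under both labels at 60 h, where the libraries were shallower, and the part of depth was not tested.

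Regions called in all 4 libraries at 0 h and in none at 60 h numbered 32 (5.57%, against 5.47% of all linked regions). COL24A1, COL15A1, COL21A1 and COL4A2 had 3 each, COL1A2, COL5A3, COL6A3 and COL18A1 had 2 each, and COL5A1, COL8A1, COL8A2, COL6A6, COL12A1, COL13A1, COL14A1, COL16A1, COL23A1, COL26A1, COL27A1 and COL28A1 had 1 each. By equal peak numbers 8 regions opened in all 8 libraries (1.39%, against 0.687%) and 5 closed (0.871%, against 1.27%).

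**Figure D3:**
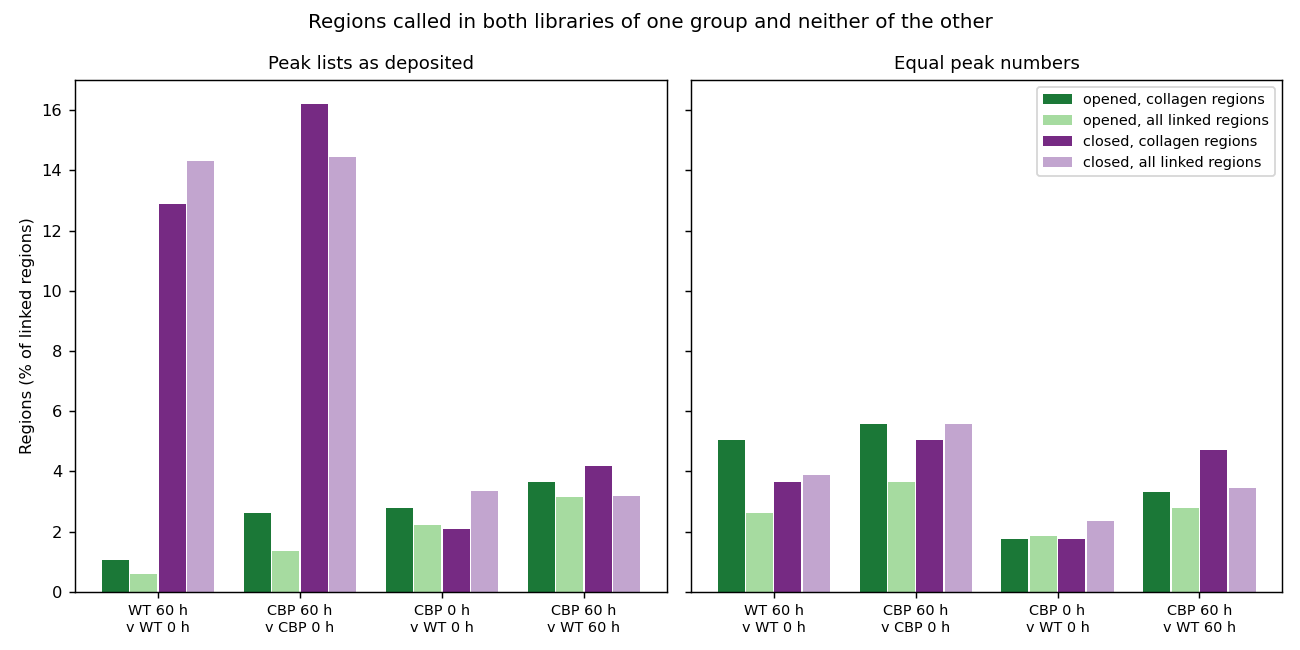
Collagen regions opened and closed in each comparison, as a percent of 574, beside the percent over all linked regions, with peaks as deposited and with equal peak numbers. Closing dominates both comparisons over time as deposited, at 16.2% in CBP and 12.9% in WT, and not with equal numbers.

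At 0 h, the CBP libraries had 16 collagen regions that neither WT library called (2.79%, against 2.23% of all linked regions), and 12 were closed (2.09%, against 3.35%). In lists of equal length 10 opened (1.74%, against 1.85%) and 10 closed (1.74%, against 2.35%). By gene, 10 of 42 had more opened (9.87% of all linked genes) and 6 had more closed (15.4%).

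COL4A1, which with COL4A2 forms the main type IV network, opened 4 regions and closed 2, and COL17A1, a collagen of epithelial hemidesmosomes, opened 2. The 4 opened COL4A1 regions were called in no library other than the CBP 0 h ones, and 2 of them lie inside COL4A2. Over the whole family, 13 regions were called in both CBP 0 h libraries and no other (2.26%, against 1.46% of all linked regions), and none by equal numbers (0.634% of all linked regions). Neither COL4A1 nor COL17A1 opened or closed a region by equal numbers. COL8A1 opened 2 and closed 1, COL6A3 and COL9A2 closed 2 each, COL15A1 opened 1 and closed 1, COL13A1, COL19A1, COL1A1, COL21A1 and COL5A1 opened 1 each, and COL10A1, COL18A1, COL1A2 and COL3A1 closed 1 each. COL4A2, COL5A2 and COL5A3 neither opened nor closed a region. The opened regions with the highest −log10 q lay inside COL8A1, at chromosome 13 positions 159225758 to 159226576, with 9.30 and 8.67 in CBP 60 h, 4.81 in WT 60 h replicate 2 alone and 10.1 and 10.4 in CBP 0 h, and inside COL6A6, a type VI chain, at chromosome 13 positions 1838276 to 1839121, with 7.32 and 9.11 in CBP 0 h and no peak in the 6 other libraries.

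Of the 12 regions closed in CBP at 0 h, 1 was also closed in CBP against WT at 60 h. Among the others were the following. Near COL10A1, a region at chromosome 1 positions 81755908 to 81757116, inside another gene, had −log10 q of 13.8 and 18.7 in CBP 60 h, 4.40 in WT 60 h replicate 1 alone, no peak in CBP 0 h, and 9.94 and 11.3 in WT 0 h. Between genes 14590 bp beyond the low end of COL1A2, at chromosome 9 positions 74159394 to 74159894, a region had 9.40 and 7.21 in CBP 60 h, 4.55 in WT 60 h replicate 1 alone, no peak in CBP 0 h, and 5.04 and 8.31 in WT 0 h. Beyond COL3A1, at chromosome 15 positions 93524869 to 93525548, the values were 7.07 and 6.08 in CBP 60 h, 7.70 and 7.84 in WT 60 h, no peak in CBP 0 h, and 4.69 and 5.48 in WT 0 h. All of these were called in both CBP libraries at 60 h.

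In limma no collagen differed between CBP 0 h and WT 0 h, where 0.192% of all genes were higher and 0.261% lower. At an unadjusted p under 0.05, 2 of 40 collagens were higher and 1 lower, against 981 of 13029 genes in either direction. The median collagen difference was 0, as over all genes, with a range of −20.0 to 17.6 points.

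At 60 h, 21 collagen regions opened in CBP (3.66%, against 3.14% of all linked regions) and 24 closed (4.18%, against 3.17%). At equal peak numbers 19 opened (3.31%, against 2.77%) and 27 closed (4.70%, against 3.45%). By gene, 14 of 42 had more opened (13.2% of all linked genes) and 11 more closed (13.6%). By class, differences were of few regions. Transmembrane collagens opened 5 (8.33%) and closed 1 (1.67%), and beaded filament collagens opened 3 (8.11%) and closed 1 (2.70%). Multiplexins closed 4 (7.55%), all in COL15A1, and opened none, and COL26A1 closed 2. Fibrillar collagens opened 5 (2.94%) and closed 7 (4.12%). FACIT collagens opened 6 (5%) and closed 6 (5%), and network collagens opened 2 (1.94%) and closed 3 (2.91%). No test compares these classes with one another.

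COL15A1, a multiplexin of the basement membrane of muscle fibres and capillaries, closed 4 of 33. All 4 lie inside the gene, on chromosome 1 positions 240718128 to 240829188. A pair 200 bp apart, at 240737276 to 240737829 and 240738030 to 240738860, was called in all 6 other libraries, with −log10 q in WT 60 h of 10.6 and 8.91 at the first and 12.1 and 12.5 at the second. A further region, at 240756502 to 240757259, had 9.67 and 6.38 in WT 60 h and was called in all 0 h libraries too. The fourth, at 240745030 to 240745551, had 4.57 and 7.21 in WT 60 h and no peak elsewhere. Over all 33 regions the limma difference was −9.09 points, adjusted p = 0.282, and did not pass.

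COL1A1 closed 3 of 13. The region inside the gene at 26389987 to 26390808, with −log10 q of 6.54 and 3.92 in WT 60 h, had no peak in any other library. A region at 26398356 to 26398891, 1176 bp beyond the high end, had 4.601 and 6.27 in WT 60 h and 2.89 in WT 0 h replicate 2. A region at 26383873 to 26385384 had 4.07 and 3.56 in WT 60 h, 3.26 and 1.91 in CBP 0 h and 4.90 and 4.45 in WT 0 h. All of these were weak sites, while the region over the high end of COL1A1, at 26394974 to 26397287, had 19.7 and 20.3 in CBP 60 h, 23.1 and 14.5 in WT 60 h, 47.3 and 48.9 in CBP 0 h and 37.0 and 33.0 in WT 0 h. The distal regions at 26406207 to 26408622 and 26418190 to 26419700 were likewise called in all 8 libraries.

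**Figure D4:**
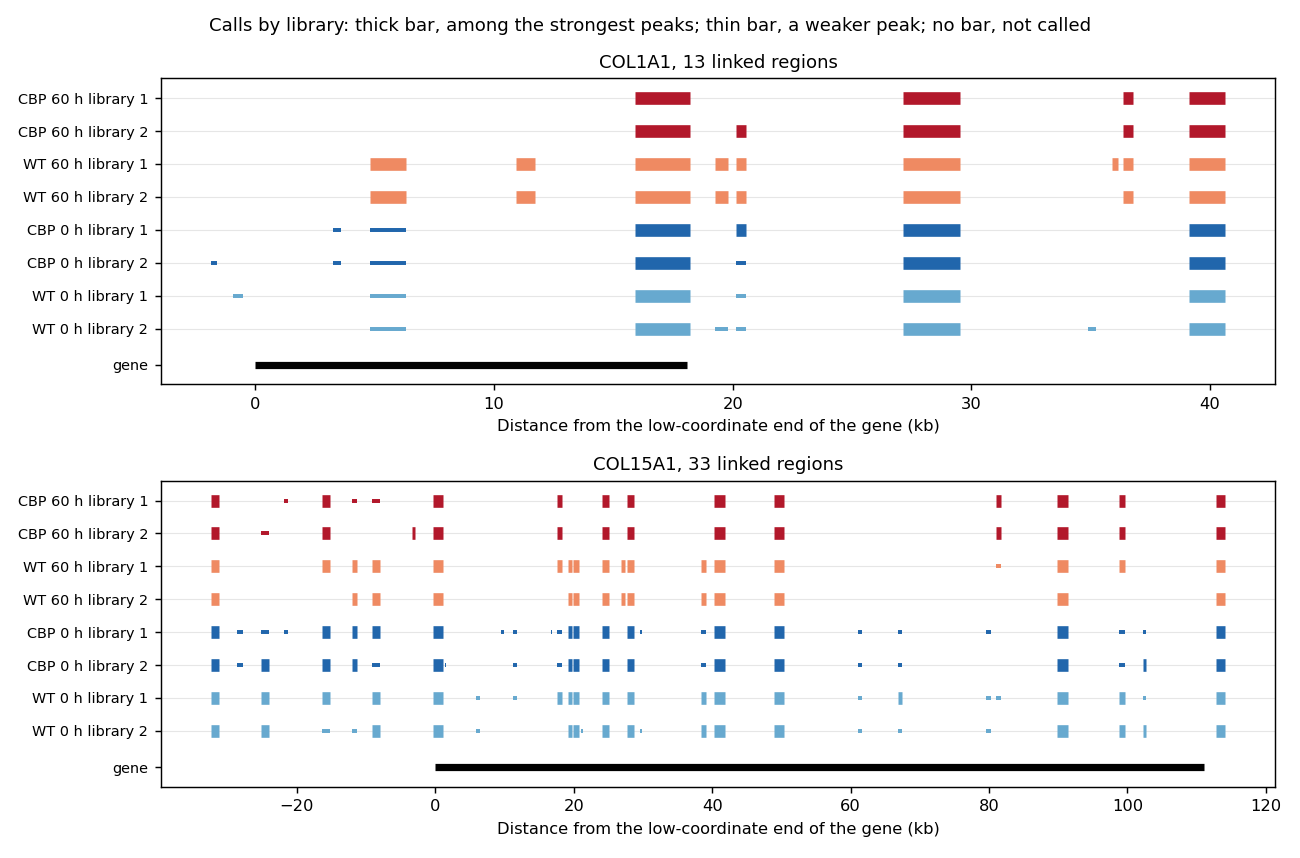
Linked regions of COL1A1 and COL15A1 called in each library, by distance in kb from the low-coordinate end of the gene (black bar), with libraries in the order CBP 60 h, WT 60 h, CBP 0 h and WT 0 h from the top; thick bars are called with equal peak numbers, thin bars only as deposited. COL1A1 has 4 and 5 calls in CBP 60 h, against 9 and 8 in WT 60 h, and its calls near 5, 11 and 19 kb are missing in CBP 60 h.

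Other closed regions were in COL16A1 and COL26A1, with 2 each, and in COL12A1, COL13A1, COL14A1, COL27A1, COL3A1, COL4A2, COL4A5, COL5A1, COL5A3, COL6A3 and COL8A1, with 1 each, besides 2 in COL21A1. COL1A2 and COL4A1 neither opened nor closed a region at 60 h. Of the 24, 17 were called in all 4 libraries at 0 h as well as in both WT 60 h libraries (2.96% of collagen regions, against 2.09% of all linked regions). The region of this kind near COL5A3, at chromosome 2 positions 68825590 to 68826656, lay 1541 bp beyond the low end. Near COL4A5, a type IV chain, another lay 1281 bp beyond the low end, at chromosome X positions 88956659 to 88957556. Among the stronger ones in WT 60 h was a region inside COL26A1, at chromosome 3 positions 9147857 to 9148686, with 10.3 and 11.5 in WT 60 h, 14.6 and 4.53 in CBP 0 h and 7.21 and 9.26 in WT 0 h. By equal numbers 6 regions showed this pattern (1.05%, against 1.38%). The mirror pattern, called in all 4 libraries at 0 h and in both CBP 60 h libraries but in neither WT 60 h library, was found at 8 regions (1.39%, against 1.42%), or 2 by equal numbers (0.348%, against 0.453%).

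Regions called in both WT 60 h libraries and in no other numbered 3, in COL1A1, COL15A1 and COL3A1 (0.523%, against 0.193% of all linked regions). The one near COL3A1, at chromosome 15 positions 93527316 to 93527740, had −log10 q of 8.95 and 3.52 in WT 60 h. By equal numbers there were 9 such regions (1.57%, against 0.768%). As deposited, all 3 are therefore among both the 6 that opened over time in WT and the 24 that closed in CBP at 60 h, 2 comparisons that share the WT 60 h libraries.

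Opened regions in CBP at 60 h included 2 each in COL11A1, COL12A1, COL13A1 and COL21A1. COL12A1 and COL21A1 also closed 1 and 2, and COL13A1 closed 1. Inside COL27A1, a fibrillar collagen of cartilage, a region at chromosome 1 positions 254894143 to 254894613 had −log10 q of 8.37 and 7.24 in CBP 60 h, 9.06 in CBP 0 h replicate 1 alone and no peak in WT at either time. COL11A1, a cartilage fibrillar chain, had a region at chromosome 4 positions 115820201 to 115820955 with −log10 q of 7.92 and 6.92 in CBP 60 h and no peak in any other library. COL12A1, a FACIT collagen of tendon and muscle, had 2 such regions, COL8A2 and COL6A6 had 1 each, and these 5 made up the regions called in CBP 60 h alone (0.871%, against 0.602%), or 10 by equal numbers (1.74%, against 1.25%).

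Another 11 of the 21 opened regions were open in both WT 0 h libraries, so that they closed over time in WT and were still called in CBP 60 h (1.92% of collagen regions, against 1.63% of all linked regions). By equal numbers there were 3 such regions (0.523%, against 0.571%). Inside COL25A1, a transmembrane collagen needed for motor innervation of muscle in mice, the region at chromosome 8 positions 112875321 to 112876187 had −log10 q of 6.26 and 8.92 in CBP 60 h, no peak in WT 60 h, 18.2 and 15.5 in CBP 0 h and 20.7 and 16.97 in WT 0 h. Inside COL23A1, also a transmembrane collagen, the region at chromosome 2 positions 79781351 to 79782136 had 4.52 and 3.05 in CBP 60 h, none in WT 60 h, 26.1 and 18.4 in CBP 0 h and 13.4 and 22.5 in WT 0 h. Next to COL13A1, a transmembrane collagen of the neuromuscular junction, the region at chromosome 14 positions 72785089 to 72785759 had 5.63 and 5.62 in CBP 60 h, none in WT 60 h, 12.3 and 12.8 in CBP 0 h and 7.83 and 5.46 in WT 0 h. The remaining ones were in COL9A1, COL11A1, COL21A1, COL17A1, COL5A2, COL4A4, COL6A3 and COL9A3. Relative depth was 1.21 and 1.08 in CBP 60 h, against 1.11 and 1 in WT 60 h.

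In limma, 1 collagen was higher in CBP 60 h than in WT 60 h (1.5% of all genes were) and 2 were lower (1.91% were). The median collagen difference was −0.96 points, against 0 over all genes. Of the 40 collagens, 2 were higher and 5 lower at an unadjusted p under 0.05, against 1879 of 13029 genes in either direction. COL1A1 was lower, with 30.8% and 38.5% of its regions called in CBP 60 h, against 69.2% and 61.5% in WT 60 h, a difference of −30.8 ± 6.85 points (SE, n = 2 each), adjusted p = 0.00212. As deposited the difference was the same and did not pass (adjusted p = 0.0810), nor did it pass when peaks needed a −log10 q of 5 (−15.4 points, adjusted p = 0.249). It also failed without WT 60 h replicate 1 (−26.9 points, adjusted p = 0.0990) and without CBP 60 h replicate 1 (−26.9 points, adjusted p = 0.115).

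COL5A1, the main type V chain that starts fibril assembly, was lower, with 43.8% and 40.6% of 32 regions called in CBP 60 h, against 53.1% and 62.5% in WT 60 h. The limma difference was −15.6 ± 4.42 points (SE, n = 2 each), adjusted p = 0.0203, and −10.9 points without WT 60 h replicate 2 (adjusted p = 0.407). It did not pass as deposited (−10.9 points, limma adjusted p = 0.549), at a −log10 q of 5 (−6.25 points, adjusted p = 0.614) or with no variance trend (adjusted p = 0.380). COL24A1, a minor fibrillar collagen of developing bone, was higher, with 52.6% and 31.6% of 19 regions called in CBP 60 h, against 26.3% and 15.8% in WT 60 h. Its limma difference was 21.1 ± 5.67 points (SE, n = 2 each), adjusted p = 0.0142, and 10.5 points without CBP 60 h replicate 1 (adjusted p = 0.696). Nor did it pass as deposited (23.7 points, limma adjusted p = 0.141), at a −log10 q of 5 (10.5 points, adjusted p = 0.417) or with no variance trend (adjusted p = 0.282), and it was at 0 points with a link limit of 10 kb. COL24A1 had 47.4% and 42.1% in CBP 0 h and 42.1% and 36.8% in WT 0 h, so the WT 60 h libraries were the lowest of the 8.

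**Figure D5:**
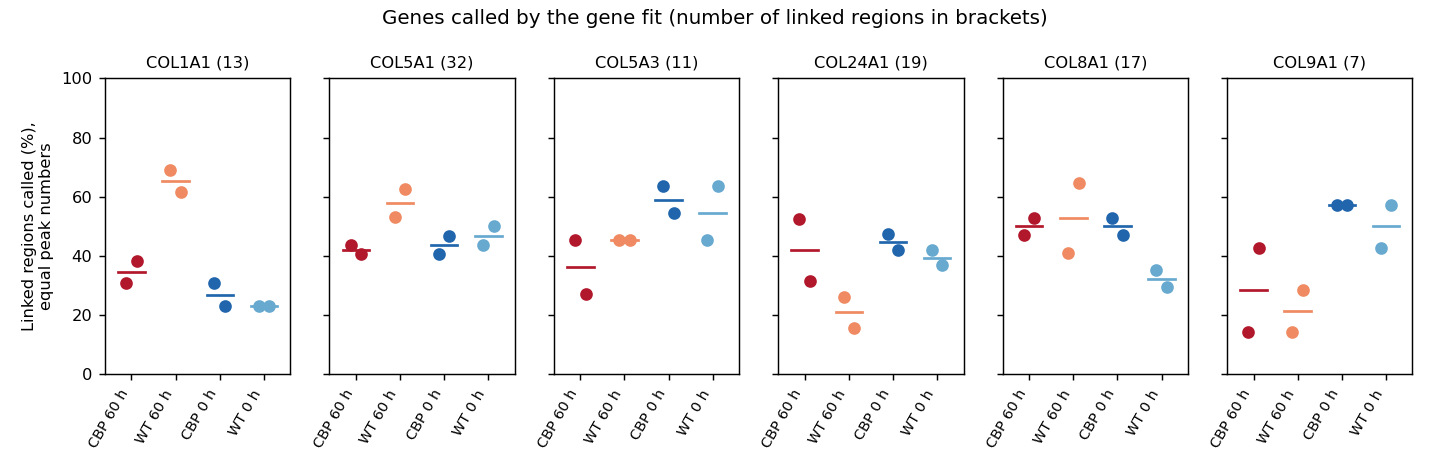
Percent of linked regions called per library, with equal peak numbers, for the collagens that passed the limma test in any comparison. Points are libraries and bars the group means, in the order CBP 60 h, WT 60 h, CBP 0 h and WT 0 h; COL1A1 is at 69.2% and 61.5% in WT 60 h and at 23.1% to 38.5% in the 6 other libraries.

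Whether the difference between CBP and WT was itself different at 60 h and at 0 h was tested as an interaction in limma. No collagen passed (0.0614% of all genes were higher and 0.0461% lower). At an unadjusted p under 0.05, 1 of 40 collagens was higher and 4 lower, against 1071 of 13029 genes in either direction. COL1A1 had an interaction of −34.6 ± 9.68 points (SE, n = 2 in each of 4 groups), adjusted p = 0.0991. The median over collagens was −2.15 points, against 0 over all genes.

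Over all 8 libraries, 1 collagen region was called in all 4 CBP libraries and no WT library (0.174%, against 0.142% of all linked regions), and 1 in the reverse sense (0.174%, against 0.231%). The first lies inside COL21A1 at chromosome 7 positions 29583582 to 29584119, with −log10 q of 4.52 and 3.76 in CBP 60 h and 15.2 and 5.53 in CBP 0 h. The second lies inside COL8A1 at chromosome 13 positions 159333504 to 159334303, with 5.42 and 10.8 in WT 60 h and 4.69 and 3.07 in WT 0 h. By equal peak numbers 1 opened (0.174%, against 0.197%) and 3 closed (0.523%, against 0.374%).

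Genes that make, bind and degrade collagen were examined in 4 lists. Of 293 regions near 30 genes of collagen synthesis, processing and crosslinking, 3 opened and 27 closed in WT over time as deposited, against 10 and 10 by equal peak numbers. In CBP over time 7 opened and 33 closed as deposited, against 12 and 11 by equal numbers. In CBP against WT 8 opened and 9 closed at 0 h and 5 and 5 at 60 h, and by equal numbers 1 and 12 at 0 h and 5 and 7 at 60 h.

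Of 138 regions near 11 collagen receptor genes, 0 opened and 16 closed in WT over time and 1 and 17 in CBP over time as deposited, against 2 and 4 in WT and 4 and 6 in CBP by equal numbers. In CBP against WT 1 opened and 7 closed at 0 h and 2 and 6 at 60 h, and by equal numbers 2 and 5 at 0 h and 2 and 6 at 60 h. Of 96 regions near 14 collagen turnover genes, 0 opened and 9 closed over time both in WT and in CBP as deposited, against 6 and 4 in WT and 1 and 6 in CBP by equal numbers. In CBP against WT 3 opened and 0 closed at 0 h and 3 and 3 at 60 h, and by equal numbers 5 and 3 at 0 h and 2 and 3 at 60 h.

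Of 177 regions near 18 fibril-associated proteoglycan and glycoprotein genes, 3 opened and 18 closed in WT over time and 5 and 21 in CBP over time as deposited, against 10 and 5 in each by equal numbers. In CBP against WT 3 opened and 9 closed at 0 h and 6 and 7 at 60 h, and by equal numbers 3 and 3 at 0 h and 6 and 7 at 60 h. The share closed over time as deposited was 9.22% to 11.6% over the 4 lists in WT, against 14.3% of all linked regions, and 9.38% to 12.3% in CBP, against 14.5%. At 60 h the share closed in CBP as deposited was 1.71% to 4.35%, against 3.17% of all linked regions, and the share opened was 1.45% to 3.39%, against 3.14%. By equal numbers the lists closed 2.82% to 4.17% in WT over time, against 3.89%, 2.82% to 6.25% in CBP over time, against 5.57%, and 2.39% to 4.35% in CBP at 60 h, against 3.45%. They opened 1.45% to 6.25% in WT over time, against 2.62%, and 1.04% to 5.65% in CBP over time, against 3.64%. In CBP at 0 h as deposited they opened 0.725% to 3.125%, against 2.23%, and closed 0% to 5.08%, against 3.35%. Equal numbers gave 0.341% to 5.21% opened at 0 h, against 1.85%, and 1.69% to 4.10% closed, against 2.35%.

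Most counts of single genes over time did not last with equal peak numbers. As deposited in WT over time, ADAMTS14, a procollagen protease, closed 5 regions, P3H2 and TGFBI closed 4 each, LOXL1, DDR1, ITGA11, ITGB1, TIMP3 and DCN closed 3 each, and FAP, MMP15 and THBS2 closed 2 each. By equal numbers each of these 12 genes closed at most 1, and ADAMTS14, ITGB1, TIMP3 and TGFBI opened more than they closed. As deposited in CBP over time, the lysyl oxidase LOXL4 closed 6 and opened 1, ITGB1, the beta chain of collagen-binding integrins, closed 5 and opened 1, LOXL1, PCOLCE2 and PRELP closed 4 each, TIMP3 and THBS1 closed 3 each, ADGRG6, DDR2, MMP2 and DPT closed 2 each, and MMP15 closed 1. By equal numbers ITGB1 closed 2 and opened 1, the others closed at most 1, and ADGRG6 and DPT opened 1 and closed none.

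As deposited in CBP at 0 h, ADGRG1 closed 3, DCN, which encodes the proteoglycan decorin, closed 2, TIMP3 and PRELP opened 2 each, P4HA1 opened 1 and closed 2, P4HA2 opened 2 and closed 1, MMP2 opened 1, and ADAMTS14, DDR1, DDR2 and COMP closed 1 each. By equal numbers P4HA2, with 0 opened and 2 closed, MMP2, with 0 and 1, and DDR1, with 1 and 0, turned, and PRELP and COMP had none of either. In CBP at 60 h LOXL1, DDR2, ITGB1 and MMP2 closed 2 each, ADAMTS2, TIMP3, a metalloproteinase inhibitor, and TGFBI opened 2 each, LUM opened 1 and closed 2, ASPN closed 1, and COLGALT2, DDR1 and MMP16 opened 1 each. Equal numbers gave the same counts there, except that TIMP3 opened 1.

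Single genes of these lists passed in limma. At 60 h, 1 of 10 fitted receptor genes and 1 of 12 turnover genes were lower in CBP, none was higher, and the list medians were −5.56 and 3.57 points. Over all fitted genes 1.91% were lower and 1.5% higher. DDR2, a receptor kinase for fibrillar collagen, had 45% and 40% of 20 regions called in CBP 60 h, against 65% and 60% in WT 60 h (−20 ± 5.53 points, SE, limma adjusted p = 0.0169). MMP2, a gelatinase, had 60% and 50% of 10 regions called in CBP 60 h, against 80% and 80% in WT 60 h (−25 ± 7.84 points, SE, limma adjusted p = 0.0437). None of 25 synthesis genes and 17 proteoglycan genes passed at 60 h, and their medians were 0.

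Over time in WT, PLOD2, a collagen lysyl hydroxylase, was higher, with 55.6% and 72.2% of 18 regions called in WT 60 h, against 44.4% and 38.9% in WT 0 h (22.2 ± 5.82 points, SE, limma adjusted p = 0.0139). MMP3, a matrix metalloproteinase with 4 regions, was lower, with 0% and 0% called in WT 60 h, against 50% and 50% in WT 0 h (−50 ± 13.8 points, SE, limma adjusted p = 0.0211). Over time in CBP, POSTN, which encodes the matrix protein periostin, was higher, with 58.3% and 50% of 12 regions called in CBP 60 h, against 25% and 25% in CBP 0 h (29.2 ± 7.13 points, SE, limma adjusted p = 0.00363). At 0 h, LOXL1, a lysyl oxidase that crosslinks elastin and collagen, was lower in CBP, with 50% and 57.1% of 14 regions called in CBP 0 h, against 78.6% and 78.6% in WT 0 h (−25 ± 6.59 points, SE, limma adjusted p = 0.0407). Each of these 6 calls was lost when at least 1 of the libraries was left out. In WT over time 1 of 25 fitted synthesis genes was higher (0.775% of all genes were) and 1 of 12 turnover genes lower (1.37% were). In CBP over time 1 of 17 proteoglycan genes was higher (1.96% were), and at 0 h 1 of 25 synthesis genes was lower (0.261% were). As deposited, the PLOD2 difference was −2.78 points (limma adjusted p = 0.788), that of POSTN 0 points (adjusted p = 1), that of LOXL1 −7.14 points (adjusted p = 0.832), that of DDR2 −15 points (adjusted p = 0.498) and that of MMP2 −25 points (adjusted p = 0.299), so none of these 5 passed.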

How the data were processed

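ATAC-seq peak lists of 8 libraries were used. The submitters' processing notes name Trimmomatic, MACS2 2.1.0 and the build Sscrofa11.1. For the aligner, duplicate removal and transposase shift, the sources used here give nothing, and each would move peak heights and edges. The authors deposited, for each peak, a score, a fold enrichment, a −log10 p and a −log10 q, all from their peak caller, for each library separately. Relative depth was recovered by solving fold and −log10 p for the summit pileup, which came out whole for 100% of peaks at a tolerance of 0.01. The gene table gives no strand, and no sequence was read. Collagen classes, gene lists and members were chosen with earlier results of these data known.

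Genes were fitted by limma 3.58.1 in R 4.3.3, with a variance trend on the number of linked regions. A test on simulated data failed with the stock prior, so the prior was taken from genes with spread above 0, a change made after the data were seen. The prior degrees of freedom were infinite, so a gene's own spread was not used. Calls of 13029 genes were simulated for CBP 60 h against WT 60 h. Of 100 shifts of 15 points 9 were recovered, and of 100 of 30 points 69, with 0 false calls. The shifted genes were drawn only from genes with many linked regions and a middling percent called. Recovery at genes with few regions was therefore not tested. The simulated spread was that of the fitted trend itself. The rate of false calls in the measured libraries, where genes differ in their own spread, was not tested. Named genes were, per comparison, the 12 collagens with the largest net count of opened minus closed regions, the main type I, III, IV, V, VI and XV genes, those past an adjusted p of 0.05, the 5 with most regions, and the 3 genes with the largest net count of each further list. Named regions were those split by time or label over all 8 libraries, the closed ones by gene, and the 2 with the highest −log10 q in each comparison and direction; other single regions were chosen after their values were seen. Peaks were handled in Python 3.11.15 with pandas 2.3.3. With no label on the origin of replicates, a p-value covers only the spread of these libraries, pooled over genes by number of regions. Part of that spread may be technical. Intervals were not given, since the lists hold no counts. Alternatives were equal peak numbers, a stricter q, 50% cover, other link rules, other variance models, the replicate block and leaving out each library.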

Additional observations from a re-analysis of the deposited data

How the results depend on the processing

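Most counts of collagen regions moved with peak number, and relative depth limits what the 60 h lists can show. With equal peak numbers, opened and closed counts were 29 and 21 for WT over time, 32 and 29 for CBP over time, 10 opened for CBP against WT at 0 h, 8 and 5 over time in all 8 libraries, and 3 closed by label in all 8. A −log10 q of 5 or more gave 15 closed for CBP against WT at 60 h and 2 opened and 0 closed by label in all 8 libraries. Requiring 50% of a region to be covered gave 49 closed over time in all 8 libraries and 0 closed by label. A link limit of 10 kb gave 2 and 27 for WT over time, 4 and 27 for CBP over time, 5 and 3 for CBP at 0 h, 6 and 7 for CBP at 60 h, 1 and 10 for time in all 8, and 0 and 0 by label. Linking all regions in or within 50 kb of the gene gave 142 closed for WT over time, 27 and 147 for CBP over time, 26 and 26 for CBP at 0 h, 36 opened for CBP at 60 h and 50 closed for time in all 8. Both link rules change how many regions are counted, to fewer for 10 kb and to more for the other. Their counts therefore do not share a total with the main ones. Without 1 library, opened and closed counts ranged over 9 to 19 and 101 to 125 for WT over time, 18 to 33 and 115 to 159 for CBP over time, 27 to 56 and 21 to 45 for CBP at 0 h, 30 to 51 and 35 to 55 for CBP at 60 h, 3 to 4 and 34 to 43 for time in all 8, and 1 to 4 and 1 to 3 by label, since a lone library is easier to satisfy.

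The number of collagens passing in limma was 2 for WT over time, 2 for CBP over time, 0 for CBP at 0 h, 3 for CBP at 60 h and 0 for the interaction. As deposited it was 19, 19 and 0 for WT over time, CBP over time and CBP at 60 h. All of these were lower at 60 h, as were 5793 of 13029 genes in WT and 5061 in CBP. A −log10 q of 5 gave 12, 6 and 0 there, and 50% cover gave 12, 9 and 1. Of each 12 in WT over time 11 were lower, and in CBP over time all 6 and all 9 were. Over all 13029 genes 2306 in WT and 2346 in CBP were lower with a −log10 q of 5, and 2323 and 2281 with 50% cover. A 10 kb link gave 1 for CBP at 0 h and 1 for CBP at 60 h, and genes with 1 or more regions gave 1 for CBP over time. No variance trend gave 1, 0 and 0, and the prior from all genes, added after seeing the data, gave 1 for WT over time, 0 for CBP over time and 1 for the interaction. An arcsine square root scale, also added after seeing the data, gave 3 for WT over time and 0 for CBP over time. Without 1 library the counts ranged over 1 to 2 for WT over time, 0 to 1 for CBP over time, 0 to 0 for CBP at 0 h, 0 to 3 for CBP at 60 h and 0 to 0 for the interaction. The causes were not tested.

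With the replicate block, 0 collagens passed for CBP over time, with adjusted p = 0.0580 for COL9A1 and 0.0536 for COL5A3 in limma, and no other count of collagens moved; LOXL1 and MMP2 also missed the threshold (adjusted p = 0.0544 each). Deviations of same-numbered libraries correlated at −0.00182 to 0.0150. These are deviations of coarse percents, in which a shared origin could go unseen, so they do not settle whether the numbers pair the libraries.

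Signs turned for single genes. COL8A1 in WT over time was at −11.8 points as deposited, and PLOD2 at −2.78 as deposited and with a −log10 q of 5. Net opened minus closed counts turned with equal peak numbers in WT over time for COL15A1 (1), COL6A3 (2), COL16A1 (2), COL26A1 (1), COL4A1 (1) and COL5A1 (1), in CBP over time for COL4A1 (2), COL13A1 (2), COL1A1 (1), COL1A2 (1) and COL6A3 (2, and 1 with a 10 kb link), and in CBP at 0 h for COL9A2 (1) and COL19A1 (−1). COL1A1 turned to −1 in WT over time and in CBP at 0 h when all regions in or near the gene were linked. Without 1 library, net counts in WT over time ran from −3 to 0 for COL3A1 (−3 without WT 60 h replicate 1) and −2 to 2 for COL5A2 (2 without WT 60 h replicate 2). At 0 h they ran from −1 to 2 for COL1A1 (−1 without WT 0 h replicate 1), −4 to 1 for COL1A2 (1 without CBP 0 h replicate 2) and −2 to 3 for COL5A1 (−2 without WT 0 h replicate 1, −1 without CBP 0 h replicate 1). At 60 h they ran from −4 to 1 for COL16A1 (1 without CBP 60 h replicate 1) and COL5A1 (1 without CBP 60 h replicate 2), −2 to 1 for COL3A1 (1 without WT 60 h replicate 1) and −2 to 2 for COL5A2 (−2 without WT 60 h replicate 2). COL3A1 in WT over time also turned to −2 with a −log10 q of 5 and with 50% cover, COL5A1 at 0 h to −1 with 50% cover, COL12A1 at 60 h to −1 with a 10 kb link and COL4A2 at 60 h to 1 with a −log10 q of 5.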

Other observations

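Calls at COL4A6 differed between replicates of a group. COL4A6, a basement membrane chain with 5 linked regions, had 3 and 0 called in CBP 60 h, 0 and 0 in WT 60 h, 4 and 0 in CBP 0 h and 1 and 3 in WT 0 h. At another gene the replicates matched: COL9A3, with 1 region at its low end, was called in both libraries of CBP 60 h, CBP 0 h and WT 0 h and in neither of WT 60 h, and in none with equal peak numbers.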
